A study of Mus musculus with 16 samples.

Results

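Zic1, Msx1, Emx2, Otx1, Otx2, Lhx2, Ebf1 and Meis1 are transcription factor genes that mark position in the developing nervous system. They were followed across the 16 Affymetrix arrays of a study of Tlx (Nr2e1), an orphan nuclear receptor, in adult mouse neural stem cells. A probe set counted for a gene when the platform annotation named that gene alone, and the probe set with the highest mean signal stood for the gene. Of the 8 named genes, 6 had a probe set (9 probe sets in all), among 12393 genes with one. No probe set was found under the symbols Emx2 and Otx1, which were not analysed here. A mean log2(signal + 16) of at least 6.07, a signal of about 51.1, was required for testing. Zic1, Ebf1, Lhx2, Msx1 and Meis1 were among the 7619 genes past it, and Otx2 lay far below it.

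All arrays came from cells of the genotype Tlx(f/Z), and the genotypes compared were Tlx(f/Z;CreER), called CreER here, and Tlx(f/Z) without it, called no Cre. CreER is a Cre recombinase fused to a ligand-binding domain of the oestrogen receptor that 4-hydroxytamoxifen (4OHT) activates, and f usually denotes an allele flanked by recombination sites. The labels spell out neither letter, nor the promoter that drives CreER, nor the age of the animals. Cells of each genotype received 4OHT or vehicle and were collected after 36 or 60 h, which gave 8 groups of 2 arrays. The groups are therefore CreER with vehicle, CreER with 4OHT, no Cre with vehicle and no Cre with 4OHT, each at both times. The labels call the samples biological replicates without saying whether they were separate animals or cultures, so p-values rest only on spread between these arrays. The limma p-values take that spread from a trend over all genes, not from the gene tested. A difference between the genotypes cannot be told apart from a difference between the cultures or animals that supplied them.

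Zic genes encode zinc finger factors of the dorsal neural tube and the cerebellum. Ebf1, a helix-loop-helix factor best known for B cell commitment, is also expressed by young neurons, including those of the striatum. Lhx2 encodes a LIM-homeodomain factor required for cortical identity, Msx1 a homeodomain factor of the dorsal midline that responds to BMP signalling, and Meis1 a homeodomain partner of Pbx and Hox proteins. Emx2, Otx1 and Otx2 pattern the forebrain and midbrain. Neural stem cells in culture can keep part of the positional code of the region they were taken from.

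The median signal of an array lay between 92.2 and 132.6. Tlx itself could not check the labels, because no probe set was listed under Nr2e1. The signal of Esr1, whose ligand-binding domain is part of CreER fusions, was 279 to 444 on CreER arrays and 11.7 to 32.2 on no Cre arrays. Of 13 neural stem and progenitor markers, 10 were past the filter, among them Sox2, Nes, Fabp7 and Vim, while Hes5, Prom1 and Gfap were near background. The ratio of 5′ to 3′ signal of the actin control probe sets, which falls with degraded or poorly labelled RNA, was 0.548 to 0.666 on the no Cre arrays at 36 h. It was 0.773 to 0.891 on the no Cre arrays at 60 h and 0.716 to 0.882 on the CreER arrays. The median of all tested genes lay 0.13 lower in CreER than in no Cre under vehicle and 0.15 lower under 4OHT, on the log2 scale, and each difference below has to be read beside that shift.

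The 250 bases before the annotated start are shown for the 3 members that limma called between genotypes in either treatment. For Msx1 that was a call under 4OHT alone, lost in 4 of 27 settings, with overlapping genotypes. The arrays measure only the transcript, and these are the sequences next to it. They are given 5′ to 3′ on the strand of the gene, from RefSeq on GRCm38.p6, where 7 of the 8 members matched. Zic1 lies at chr9:91365769-91366018 on the minus strand, Ebf1 at chr11:44617850-44618099 on the plus strand and Msx1 at chr5:37824586-37824835 on the minus strand. Where the table lists several starts, as for Ebf1, the most upstream was used. Capitals mark a match to a searched motif.
Zic1: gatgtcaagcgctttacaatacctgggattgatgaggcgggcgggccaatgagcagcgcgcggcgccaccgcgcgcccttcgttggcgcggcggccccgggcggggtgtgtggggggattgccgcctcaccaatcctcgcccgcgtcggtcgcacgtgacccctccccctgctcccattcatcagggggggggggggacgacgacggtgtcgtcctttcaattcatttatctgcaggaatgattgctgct
Ebf1: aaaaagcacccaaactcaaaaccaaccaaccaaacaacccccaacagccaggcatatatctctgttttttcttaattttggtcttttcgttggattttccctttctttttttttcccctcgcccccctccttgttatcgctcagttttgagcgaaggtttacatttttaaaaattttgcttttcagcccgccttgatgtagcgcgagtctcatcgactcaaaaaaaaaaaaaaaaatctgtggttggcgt
Msx1: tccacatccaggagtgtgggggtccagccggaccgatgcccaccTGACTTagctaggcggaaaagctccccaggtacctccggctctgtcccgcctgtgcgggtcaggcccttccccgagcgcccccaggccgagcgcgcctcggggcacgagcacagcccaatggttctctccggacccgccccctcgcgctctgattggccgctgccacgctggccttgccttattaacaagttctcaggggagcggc
The 4 motifs searched on both strands were CAGCAGG (Zic), TAATTA (homeodomain core), TGACAG (Meis) and AAGTCA (nuclear receptor half-site bound by Tlx). They were found in 8.44%, 4.84%, 15.9% and 13.1% of 32851 promoters of that length. The half-site AAGTCA occurred in the Msx1 window, read as TGACTT on the printed strand 206 bases before the start. No searched motif occurred in the Zic1 and Ebf1 windows, which says only that these letters are absent from them. The Zic1 window held 66.0% G and C with 27 CpG pairs and the Msx1 window 68.0%, against 40% with 9 CpG pairs for Ebf1 and medians of 52.4% and 6 over all promoters. The windows of the strongly differing genes Zic1 and Ebf1 thus lay on opposite sides of the median base composition.

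Zic1 and Ebf1 were high in all no Cre arrays and low in all CreER arrays, whatever the treatment or time. Lhx2 and Meis1 had overlapping levels in the genotypes, Msx1 varied between arrays of the same group, and Otx2 was at background throughout. Under vehicle, 2 of the 5 tested members were lower in CreER and 0 were higher by limma (adjusted p under 0.05), while 34.5% of all tested genes were called, 26.6% lower and 7.97% higher. Under 4OHT, 2 members were lower and 1, Msx1, was higher, against 38.5% of genes called, 30.0% lower and 8.58% higher. Over all 4 conditions the 2 lower calls stood against 51.3% of genes called. These counts do not set the members apart from the background, and Zic1 passed the filter only through its no Cre arrays. By size, among the 7619 genes, Ebf1 ranked 23 by absolute difference under vehicle and 16 under 4OHT. The Zic1 difference was larger, but its mean CreER signal lay close to the filter under vehicle (54.5) and below it under 4OHT (40.8), and no rank is given. The split of calls depended on scaling: 607 genes were higher and 2024 lower under vehicle with the deposited signals, 2189 and 1782 after median scaling, and 2225 and 1980 after quantile normalization. Under 4OHT the splits were 654 and 2282, 1790 and 2225, and 2111 and 2151. Zic1 and Ebf1 were called lower in CreER under each of these scalings and treatments.

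**Figure D1:**
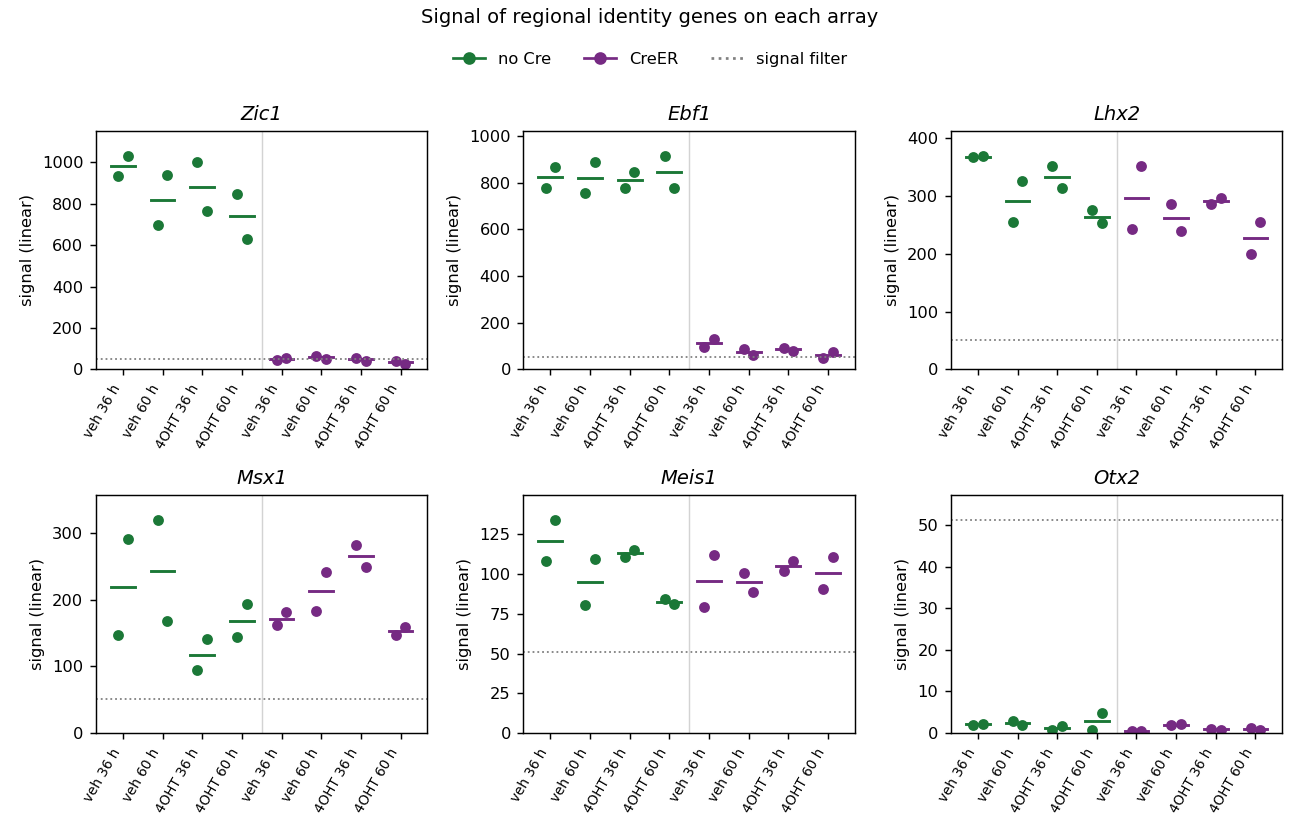
Linear signal of the 6 measured members on each of the 16 arrays (points), with the group mean as a bar and the signal filter of 51.1 as a dotted line; green is no Cre, purple is CreER, and each panel has its own axis from 0. Zic1 and Ebf1 separate by genotype, Lhx2, Msx1 and Meis1 overlap over the genotypes, and Otx2 lies far below the filter.

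**Figure D2:**
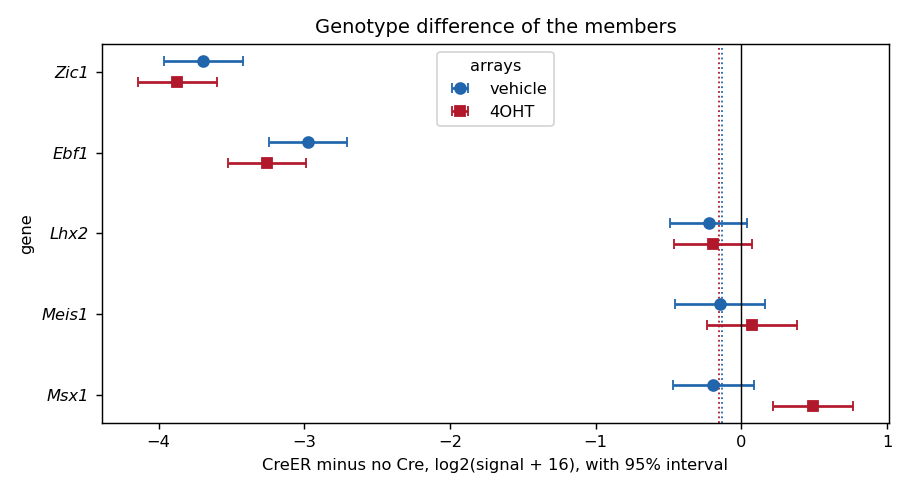
Difference CreER minus no Cre in log2(signal + 16) for the 5 tested members, with 95% intervals from limma, for vehicle (circles) and 4OHT (squares); dotted lines mark the median of all tested genes. Zic1 and Ebf1 lie near -4 and -3, while the intervals of Lhx2 and Meis1 include 0 under both treatments.

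Zic1, a zinc finger factor that keeps dorsal progenitors dividing, showed the largest difference of the members. On no Cre arrays with vehicle its signal was 936 and 1028 at 36 h and 696 and 938 at 60 h, and with 4OHT it was 999.9 and 765 at 36 h and 848 and 631 at 60 h. On CreER arrays with vehicle it was 45.6 and 55.7 at 36 h and 65.6 and 50.9 at 60 h, and with 4OHT 55.9 and 40.4 at 36 h and 42.1 and 24.9 at 60 h. Every no Cre array was above every CreER array, with the lowest no Cre array at 631 and the highest CreER array at 65.6. Over 8 arrays each, the mean signal was 47.6 ± 12.4 (SD, n = 8) in CreER and 855 ± 145 (SD, n = 8) in no Cre, a ratio of 18.0. The CreER mean lay below the filter, so that ratio depends on a level near background. On the log2(signal + 16) scale the difference was -3.69 (SE 0.14) under vehicle and -3.87 (SE 0.14) under 4OHT, with limma adjusted p of 5.36e-152 and 4.29e-167. Such small values rest on a spread taken from the trend over all genes, and Zic1 passed the filter only through its no Cre arrays. The exact permutation test of the 4 against 4 arrays of each treatment gave p = 0.0286, and that within the 4 conditions gave p = 0.00154, the smallest values these designs allow. Within single conditions the difference was -3.91 (vehicle, 36 h), -3.48 (vehicle, 60 h), -3.81 (4OHT, 36 h) and -3.94 (4OHT, 60 h). It was present in vehicle cells to the same order as after 4OHT, and the difference of the 4OHT responses was -0.18 with a 95% interval of -0.56 to 0.20. Without overlap between genotypes over all 16 arrays were 10.6% of the tested genes, and 8.01% had CreER lower.

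Zic4 is the protein-coding gene next to Zic1 in the RefSeq annotation, and the pair is known to be transcribed divergently. The mean signal of Zic4 was 15.7 in CreER and 29.3 in no Cre, and that of Zic2 41.7 and 30.6, all below the filter and so without a test. Zic5, past the filter, had 96.6 and 99.6, with adjusted p of 0.585 under vehicle and 0.265 under 4OHT by limma. These paralogs are named by family after their values were seen. Of the Zic genes with a probe set, only Zic1 and Zic5 were past the filter.

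Ebf1 differed in the same direction, and 3 probe sets measured it. On no Cre arrays the brightest probe set gave 779 and 865 with vehicle at 36 h, 755 and 888 with vehicle at 60 h, 778 and 845 with 4OHT at 36 h and 912 and 779 with 4OHT at 60 h. On CreER arrays it gave 94.2 and 129 with vehicle at 36 h, 86.1 and 62.8 with vehicle at 60 h, 91.3 and 80.0 with 4OHT at 36 h and 48.7 and 74.7 with 4OHT at 60 h. The no Cre arrays were all high and close together, and the CreER arrays all low, with no overlap. Mean signals were 83.3 ± 23.8 (SD, n = 8) in CreER and 825 ± 59.7 (SD, n = 8) in no Cre, a ratio of 9.9, and 7 of the 8 CreER arrays were above the filter signal. In log2(signal + 16) the difference was -2.97 (SE 0.14) under vehicle and -3.26 (SE 0.14) under 4OHT, with limma adjusted p of 6.92e-103 and 2.44e-123. Exact permutation tests gave p = 0.0286 for either treatment and p = 0.00154 within conditions, again the smallest possible.

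The other Ebf1 probe sets showed the difference as well. The next brightest probe set averaged 50.1 ± 10.3 (SD, n = 8) in CreER and 506 ± 92.6 (SD, n = 8) in no Cre, a log2 difference of -2.91 under vehicle and -3.04 under 4OHT. The dimmest averaged 25.7 ± 8.12 (SD, n = 8) and 290.3 ± 47.8 (SD, n = 8), a log2 difference of -2.83 under vehicle and -2.95 under 4OHT. Neither overlapped between genotypes. With these dimmer probe sets the CreER mean lay at or below the filter signal, while with the brightest it lay above. Among the paralogs, Ebf3 fell in CreER under both treatments (log2 differences -0.70 and -0.61, limma adjusted p 1.87e-06 and 4.67e-05), from 488 ± 64.4 (SD, n = 8) in no Cre to 304 ± 35.0 (SD, n = 8). Ebf2, below the filter and named after its values were seen, had mean signals of 4.54 in CreER and 39.6 in no Cre.

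**Figure D3:**
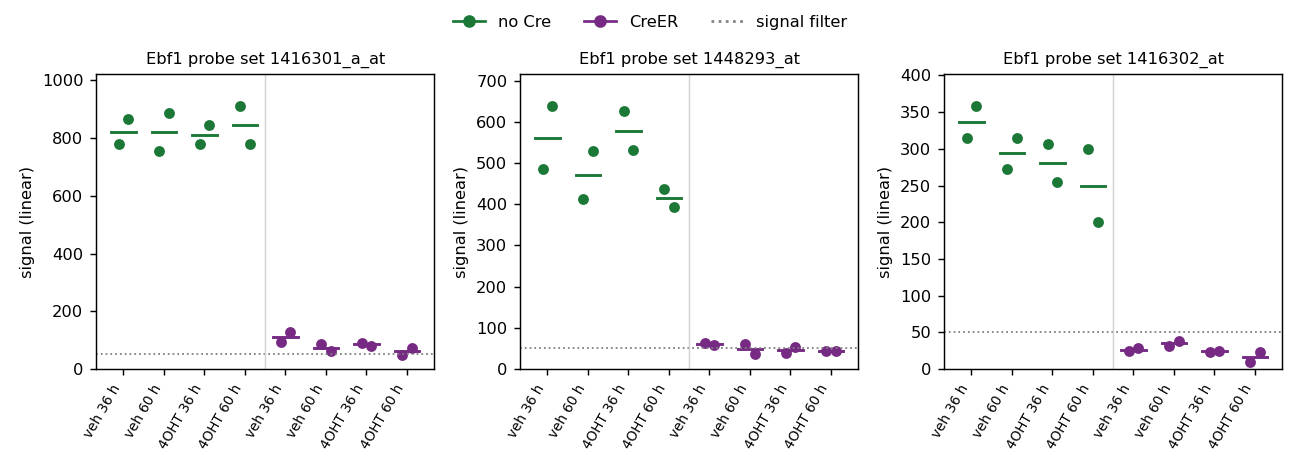
Linear signal of the 3 Ebf1 probe sets on each array (points), with group means as bars and the filter as a dotted line; each panel has its own axis from 0. In every panel all no Cre arrays (green) lie above all CreER arrays (purple).

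Lhx2, a LIM-homeodomain selector of cortical fate, was well above background in every array and differed little. On no Cre arrays its signal was 369 and 369 (vehicle, 36 h), 256 and 326 (vehicle, 60 h), 352 and 314 (4OHT, 36 h) and 276 and 253 (4OHT, 60 h). On CreER arrays it was 243 and 352 (vehicle, 36 h), 286 and 239 (vehicle, 60 h), 287 and 297 (4OHT, 36 h) and 200.5 and 255 (4OHT, 60 h). The genotypes overlapped, and in both the 60 h groups had lower means than the 36 h groups of the same treatment. Mean signals were 270.1 ± 46.0 (SD, n = 8) in CreER and 314 ± 47.9 (SD, n = 8) in no Cre. The log2 difference was -0.23 under vehicle (95% interval -0.49 to 0.04) and -0.19 under 4OHT (-0.46 to 0.07), and limma called neither (adjusted p 0.191 and 0.257). Over all 4 conditions it was -0.21, with limma adjusted p = 0.0540 and an exact permutation p = 0.0262 within conditions, a value not corrected for the 6 members tested. Relative to the median of all genes, that difference was -0.07. It became -0.06 after median scaling (exact permutation p = 0.216) and -0.02 after quantile normalization (p = 0.665), and it was -0.21 to -0.17 (exact permutation p 0.0602 to 0.0802) without any 1 of 5 arrays. These were CreER vehicle 60 h replicate 2, no Cre vehicle 36 h replicates 1 and 2, no Cre vehicle 60 h replicate 2 and no Cre 4OHT 60 h replicate 1. Conversely, limma called the difference over all conditions (-0.27 to -0.22, adjusted p 0.0164 to 0.0469) without any 1 of CreER vehicle 36 h replicate 2, CreER vehicle 60 h replicate 1, CreER 4OHT 60 h replicate 2, no Cre vehicle 60 h replicate 1 and no Cre 4OHT 60 h replicate 2. Over all alternatives this exact permutation p lay between 0.00617 and 0.665.

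Meis1, a partner of Hox and Pbx proteins, had the smallest SD relative to its mean of the 5 tested members over all 16 arrays, 101 ± 15.5 (SD, n = 16). It was 108 and 134 (vehicle, 36 h), 80.5 and 109 (vehicle, 60 h), 111 and 115 (4OHT, 36 h) and 84.0 and 81.1 (4OHT, 60 h) on no Cre arrays. On CreER arrays it was 79.4 and 112, 101 and 88.8, 102 and 108 and 90.7 and 111 in the same order of groups. The ranges overlapped almost entirely, with means of 99 ± 11.7 (SD, n = 8) in CreER and 103 ± 19.2 (SD, n = 8) in no Cre. The log2 difference was -0.15 under vehicle (95% interval -0.46 to 0.16) and 0.07 under 4OHT (-0.24 to 0.38), with limma adjusted p of 0.498 and 0.753. Over all 4 conditions it was -0.04 and turned to 0.10 after median scaling and after quantile normalization, so no direction can be given. Its paralog Meis2, which marks the lateral ganglionic eminence and its derivatives, was the largest rise among the regional genes listed. Meis2 averaged 214 ± 30.4 (SD, n = 8) in CreER and 65.4 ± 13 (SD, n = 8) in no Cre, with the lowest CreER array at 177 and the highest no Cre array at 84.2. Its log2 difference was 1.49 under vehicle and 1.52 under 4OHT, with limma adjusted p of 6.14e-21 and 1.54e-21.

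Msx1, a homeodomain repressor of the dorsal midline, varied between arrays of the same group. On no Cre arrays its signal was 147 and 290.0 (vehicle, 36 h), 319 and 168 (vehicle, 60 h), 93.8 and 141 (4OHT, 36 h) and 143 and 193 (4OHT, 60 h). On CreER arrays it was 161 and 182 (vehicle, 36 h), 183 and 242 (vehicle, 60 h), 282 and 249 (4OHT, 36 h) and 146 and 159 (4OHT, 60 h). With vehicle the genotypes overlapped, and with 4OHT they separated at 36 h (CreER above) and overlapped at 60 h. Mean signals were 200.5 ± 50.2 (SD, n = 8) in CreER and 187 ± 78.1 (SD, n = 8) in no Cre. Under vehicle the log2 difference was -0.19 (95% interval -0.47 to 0.08, limma adjusted p = 0.301). Under 4OHT it was 0.49 (95% interval 0.21 to 0.77, limma adjusted p = 0.00244), made up of 1.10 at 36 h and -0.11 at 60 h. All limma values for Msx1 take their spread from the variance trend over all genes, not from Msx1 itself. Its own SD in log2(signal + 16) within a group ranged from 0.08 (CreER, 4OHT, 60 h) to 0.64 (no Cre, vehicle, 36 h). The exact permutation test of the same 4 against 4 arrays gave p = 0.143. The call was lost without the signal filter (limma adjusted p = 0.114), with the mean of both probe sets (0.22, adjusted p = 0.234), and without the first no Cre array with 4OHT at 36 h (0.36, adjusted p = 0.0815). That array, at 93.8, was the lowest of all 16 for Msx1 and also had the lowest actin ratio, 0.548. A fit that included this ratio also lost it, with 0.29 under 4OHT (adjusted p = 0.157 by limma), and gave -0.54 under vehicle (adjusted p = 0.0353). Over all alternatives the limma adjusted p under 4OHT lay between 0.000905 and 0.234. Under vehicle it lay between 0.0353 and 0.971, and Msx1 was also called lower without replicate 1 of no Cre with vehicle at 36 h (-0.42, adjusted p = 0.0372 by limma) and without replicate 2 at 60 h (-0.41, 0.0436). Over all 4 conditions Msx1 was called higher without the other array of either pair, replicate 2 at 36 h (0.26, adjusted p = 0.0377) or replicate 1 at 60 h (0.26, 0.0362).

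A dimmer Msx1 probe set stayed close to background. Its signal was 40.7 and 47.3, 53.7 and 54.1, 29.3 and 43.0 and 68.2 and 65.7 on no Cre arrays and 26.6 and 48.0, 53.1 and 42.0, 51.9 and 41.1 and 46.4 and 48.2 on CreER arrays, in the order of groups used above. It gave log2 differences of -0.17 under vehicle and -0.06 under 4OHT, without the rise under 4OHT seen with the brighter one. The brighter probe set carries the suffix _s_at, which on this platform marks probes that can match more than a single transcript family.

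Otx2, needed for forebrain and midbrain formation and a marker of the choroid plexus, ranged from 0.482 to 2.10 (median 0.894) on CreER arrays and from 0.791 to 4.89 (median 1.91) on no Cre arrays. These signals are at background, far below 51.1, and the genotypes overlapped. The difference of -0.08 in log2(signal + 16) had an exact permutation p = 0.0309 within conditions, but signals this low carry no usable level, and no direction is drawn. The other choroid plexus markers (0 of 6 past the filter, Ttr at a mean of 11.8 in CreER and 11.6 in no Cre) were at background as well.

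The comparison of 4OHT with vehicle in CreER cells is the design's test of inducing Cre activity, and no Cre cells received the same drug as a control. Recombination at Tlx could not be checked from these arrays. In CreER cells 0 of the 5 members were called by limma, against 12.4% of all tested genes, and at an unadjusted p under 0.05 Zic1 and Ebf1 were. Zic1 differed by -0.33 in log2 signal (95% interval -0.60 to -0.06, limma adjusted p = 0.0965) and Ebf1 by -0.27 (-0.54 to -0.01, limma adjusted p = 0.184). The median of all tested genes was -0.07. Exact permutation tests of the same arrays gave p = 0.143 for Zic1 and p = 0.343 for Ebf1. By time, Zic1 differed by -0.06 at 36 h and -0.60 at 60 h, and Ebf1 by -0.32 and -0.23. The Zic1 signals compared here, 24.9 to 65.6, lie around or below the filter, so no response is read from them, nor from the calls with a pseudocount of 1 (-0.45) and without CreER vehicle 60 h replicate 2 (-0.40) or CreER 4OHT 60 h replicate 1 (-0.46). Ebf1 was called after median scaling (-0.23) and without CreER 4OHT 60 h replicate 2 (-0.39). Lhx2 differed by -0.10 (-0.37 to 0.16), Meis1 by 0.10 (-0.21 to 0.41) and Msx1 by 0.08 (-0.20 to 0.36). The Msx1 value averages opposite differences, 0.59 at 36 h and -0.43 at 60 h, with no overlap between the 2 vehicle and 2 4OHT arrays at either time. So few arrays separate easily: Otx2, at background, did not overlap at either time (0.03 and -0.08). The dimmer Msx1 probe set, close to background, averaged 37.3 with vehicle and 46.5 with 4OHT at 36 h, and 47.6 and 47.3 at 60 h. No reversal is read from these values. The genotype differences of Zic1 and Ebf1 in vehicle cells, -3.69 and -2.97, were far larger than these 4OHT differences. In no Cre cells Msx1 was 1 of the 5 genes called among 7619 (0.0656%), with a log2 difference of -0.60 (SE 0.14, limma adjusted p = 0.0483), where 0.0525% of genes were called lower. It was -0.76 at 36 h, where the 2 and 2 arrays did not overlap (nor did those of Otx2), and -0.44 at 60 h, where the Msx1 arrays overlapped. Over both times the 4 vehicle and 4 4OHT arrays overlapped, and the exact permutation test gave p = 0.143. Zic1, Ebf1, Lhx2 and Meis1 differed by -0.15, 0.01, -0.13 and -0.12 there and were not called. The median of all tested genes in no Cre cells was -0.06.

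The test of the difference between these responses also called Msx1 alone (0.69, SE 0.20, limma adjusted p = 0.0331), against 2.34% of genes called and 1.52% called higher. By time, that difference was 1.35 at 36 h and 0.02 at 60 h, values from 2 arrays a group that were not tested separately. Both Msx1 calls were lost after median scaling, after quantile normalization, without the signal filter, with the 60th percentile filter (which Msx1 did not pass), with the mean of both probe sets and with the replicate numbers as a block (adjusted p 0.0750 and 0.0537 by limma). Over single arrays left out, the no Cre difference ranged from -0.83 to -0.38. It was smaller, and not called, without no Cre vehicle 36 h replicate 2 (-0.38), no Cre vehicle 60 h replicate 1 (-0.39), no Cre 4OHT 36 h replicate 1 (-0.47) or no Cre 4OHT 60 h replicate 1 (-0.51). It was unchanged in size but not called without CreER vehicle 36 h replicate 2, CreER 4OHT 36 h replicate 1 or CreER 4OHT 36 h replicate 2 (limma adjusted p 0.0513, 0.0805 and 0.0821). The difference of the responses ranged from 0.46 to 0.91 and was not called without the same 4 no Cre arrays (0.46, 0.47, 0.56 and 0.59). The same held without CreER vehicle replicate 1 at 36 h (0.65) or 60 h (0.59), CreER 4OHT 36 h replicate 1 (0.64) or 2 (0.73), or CreER 4OHT 60 h replicate 2 (0.66). The dimmer probe set gave 0.02 for 4OHT in no Cre cells.

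Between 36 and 60 h, Ebf1 fell by 0.45 in log2 signal in CreER cells (limma adjusted p = 0.0225), the single member called against 5.28% of genes called and 3.58% called lower. The exact permutation test gave p = 0.0571, and the other Ebf1 probe sets gave -0.16 and -0.02. The median of all tested genes was -0.04. The Ebf1 call was lost with the mean of the probe sets (-0.21), in the fit that included the actin ratio (-0.37), with a pseudocount of 64, without the filter and with only the groups compared. It was also lost without CreER vehicle 36 h replicate 2 (-0.35), CreER vehicle 60 h replicate 2 (-0.36), CreER 4OHT 36 h replicate 1 (-0.41) or 2 (-0.49), or CreER 4OHT 60 h replicate 1 (-0.33). In no Cre cells 0 members were called by limma, against 4.10% of genes, and 3 had an unadjusted p under 0.05. Lhx2 differed by -0.32 (limma adjusted p = 0.145), Meis1 by -0.35 (0.179), Msx1 by 0.31 (0.179), Zic1 by -0.26 (0.247) and Ebf1 by 0.03 (0.924). The median of all tested genes was -0.11 in this comparison. Lhx2 and Meis1 were called there after median scaling and after quantile normalization. The no Cre arrays at 36 h were those with the lower actin ratios. Once that ratio was in the fit Lhx2 turned to 0.20 and Msx1 to -0.40. The median of all tested genes moved with it, from -0.11 to 0.30, so Lhx2 lay below that median in both fits. The time changes of the genotypes differed for 0 members, against 2.14% of genes, and at an unadjusted p under 0.05 for 2, Msx1 (-0.55, limma adjusted p = 0.166) and Ebf1 (-0.48, adjusted p = 0.250). Without replicate 2 of no Cre with vehicle at 36 h, or at 60 h, Msx1 was called in this difference (-0.77 and -0.76) and in the no Cre time change (0.54 and 0.53). Ebf1 was called in this difference after median scaling (-0.46) and quantile normalization (-0.65).

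Other genes of regional identity were taken from lists of family relatives and of regional markers. Of 32 family relatives with a probe set, 14 were tested; under vehicle 2 were higher in CreER (Meis2 and Tgif2), 4 were lower (Lmo4, Lmo2, Ebf3 and Lmo1) and 8 did not pass. Among all tested genes, 7.97% were called higher and 26.6% lower under vehicle. After median scaling or quantile normalization 5 of these relatives were higher and 4 lower. The Tgif2 call was lost in 5 of 28 settings, the Lmo1 call in 2 of 28 and the Lmo2 call in 1 of 27. The median log2 difference of the 14 tested relatives was 0.13 above that of all genes. Lmo4, a LIM-only cofactor that binds Ldb proteins, fell from 2204 ± 234 (SD, n = 8) to 1109.9 ± 189 (SD, n = 8), with a log2 difference of -0.94.

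Of 31 diencephalic, midbrain and hindbrain genes with a probe set, 9 were tested. Under vehicle 7 were lower and 0 higher in CreER, where 26.6% of all tested genes were called lower. The median of the 9 was 0.63 below that of all genes. The 7 lower genes were En2, Irx2, Irx3, Tcf7l2, Pou3f4, Irx5 and Egr2. En2, a homeobox gene of the midbrain and cerebellum, averaged 25.6 ± 9.34 (SD, n = 8) in CreER and 211 ± 28.5 (SD, n = 8) in no Cre, with log2 differences of -2.23 under vehicle and -2.70 under 4OHT. Irx2, an Iroquois homeobox gene of posterior forebrain and hindbrain, averaged 33.5 ± 9.14 (SD, n = 8) and 171 ± 39.4 (SD, n = 8), with differences of -1.76 and -2.07. Both were near background in CreER cells and passed the filter through the no Cre arrays, as Zic1 did. They could enter the tested genes only as lower in CreER. The 7 lower calls and the median of the 9 are therefore not read as set apart from all genes. Under 4OHT 6 of the 9 were lower. Under vehicle the 7 lower calls also stood after median scaling (with 1 higher), after quantile normalization (with 0 higher) and with any array left out. Over all processing alternatives the number of lower calls lay between 4 and 9, and Egr2 lost its call with the actin ratio in the fit.

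Of 20 dorsal and pan-telencephalic genes with a probe set, 5 were tested, and Lef1, Pax6 and Gli3 were lower in CreER under vehicle and none higher. Pax6, a paired homeobox gene of cortical progenitors, fell from 328 ± 53.5 (SD, n = 8) in no Cre to 182 ± 33.8 (SD, n = 8) in CreER, with log2 differences of -0.64 under vehicle and -0.97 under 4OHT. Of 27 ventral telencephalic genes, 7 were tested and 3 were lower (Rarb, Ptch1 and Sall1); median scaling added 2 that were higher and quantile normalization 1. Of 31 Hox genes, 4 were tested and Hoxa4 alone was lower (-0.54). That call was lost in 2 of 26 settings, the Gli3 call in 2 of 27 and the Ptch1 call in 1 of 28. These counts stand beside 26.6% of all tested genes called lower under vehicle and 7.97% called higher. With so few genes tested, the lists are given as counts, and nothing is read from them about a region.

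**Figure D4:**
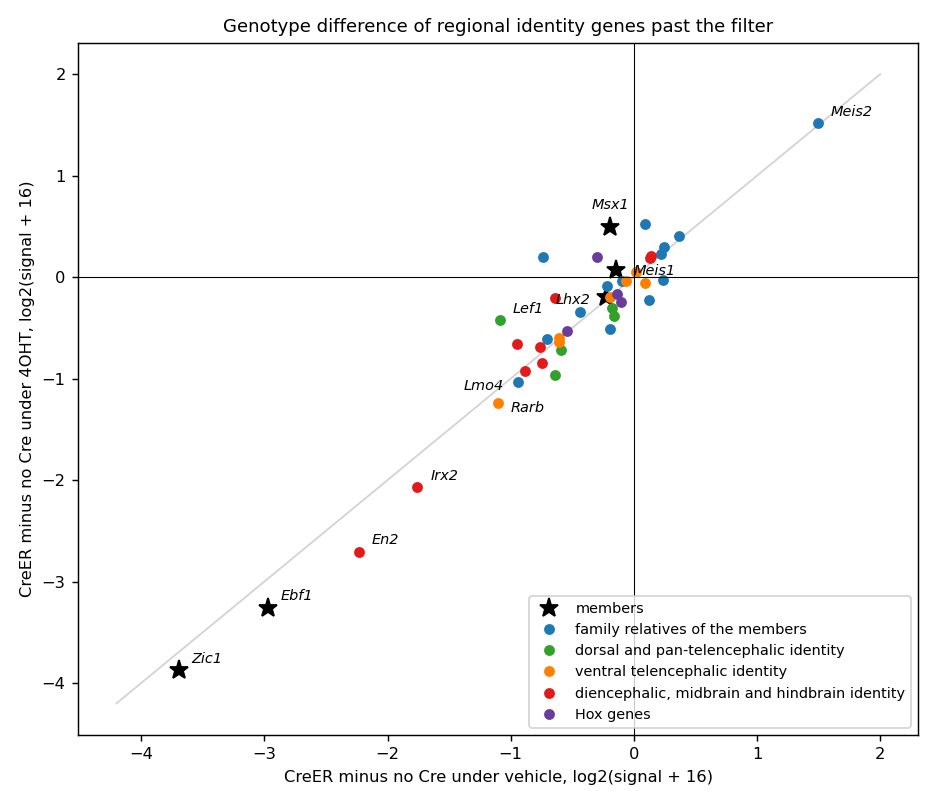
CreER minus no Cre in log2(signal + 16) under vehicle (horizontal) and under 4OHT (vertical) for the members (stars) and the other regional genes past the filter (circles, coloured by list); the grey line marks equal differences. Zic1, Ebf1, En2 and Irx2 lie farthest below 0 under both treatments, and Meis2 lies farthest above; the treatments used separate arrays of the same genotypes.

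Markers of other cell types moved with the genotype in part. Of 12 fibroblast and meningeal markers, 2 were past the filter and both were lower in CreER: Foxc1 (387 against 854, log2 difference -1.03 under vehicle) and Tbx18 (15.7 against 217, -2.96). Tbx18 was far below the filter signal in CreER and passed the filter through the no Cre arrays. The summed signal of the 12 was 464 to 632 on CreER arrays and 979 to 1417 on no Cre arrays, the same direction as Zic1 and Ebf1. Without Foxc1 and Tbx18 the sum of the other 10 was 112 to 175 on CreER arrays and 101 to 150.1 on no Cre arrays, which overlap. The defining markers Col1a1 (21.7 against 17.3), Dcn (6.38 against 3.92) and Lum (12.8 against 10.8) were near background in both genotypes. The part of such cells in the Zic1 and Ebf1 differences was not tested; in bulk RNA, fewer cells of a type and less RNA per cell cannot be told apart. Of 10 neuronal markers 3 were past the filter: under vehicle Gap43 was higher in CreER (1.75), and Syt1 (-1.92) and Map2 (-0.31) were lower. The Map2 call was lost in 15 of 28 settings, with median scaling and 9 single arrays left out among them. Of the 13 stem and progenitor markers 10 were tested. Under vehicle 1 was higher in CreER and 4 were lower, where 7.97% of all tested genes were called higher and 26.6% lower. The summed signal of the 13 was 17459 to 23006 in CreER and 19348 to 26530 in no Cre. Oligodendrocyte lineage (3 of 7 past the filter), microglial (1 of 8), endothelial and mural (2 of 10) and ependymal (0 of 2) sums overlapped between genotypes. Of the mural markers, Acta2 was higher in CreER under vehicle (0.40, limma adjusted p = 0.0355, lost in 7 of 26 settings). Cspg4, also a marker of oligodendrocyte progenitors, was higher under 4OHT (0.64, adjusted p = 2.88e-05, in 28 of 28 settings) and not called under vehicle (-0.05). Summed neuronal signal was 1292 to 2216 in CreER and 1659 to 2400.1 in no Cre.

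The genes whose group means followed each member most closely over the 8 groups were found by Pearson's r, as a description of values that share arrays. For Zic1 they were Grb14, Rpgrip1 and Tbx18 (r 0.998, 0.997 and 0.996), and 41 genes exceeded 0.99. For Ebf1 they were Ptprd, Sostdc1 and Pcdhb3 (0.999, 0.995 and 0.995), and 22 exceeded 0.99. With so large a step between genotypes, such values largely restate that step. For Lhx2 they were Msi1, Rbm17 and Cyrib (0.988, 0.982 and 0.978), for Msx1 Krt81, Farsa and Mpp2 (0.968, 0.870 and 0.868), and for Meis1 Rsrp1, Ywhag and Selenok (0.963, 0.915 and 0.909).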

How the data were processed

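Total RNA from 16 samples of adult mouse neural stem cells was hybridised, 1 array per sample, per the labels. The authors deposited 1 linear intensity per probe set and array, and the submitters' processing notes name MAS5, whose version and scaling target are not given in the sources used here. Samples were grouped by genotype, treatment and time from their titles. Of 22690 probe sets, 64 controls were left out; 20380 carried 1 gene symbol, 691 more than 1 and 1555 no symbol, and 12393 genes remained. Per gene, the probe set with the highest mean signal was used. Values were log2(signal + 16), without rescaling. Genes below the 40th percentile of mean value were left out, and the other 7619 were fitted with limma 3.58.1 in R 4.3.3 as 8 group means, with a variance trend and Benjamini-Hochberg adjustment over all of them. The prior degrees of freedom were infinite, so each gene's variance came from the trend alone. Single genes were also tested by exact permutation, two-sided. The fit was tested on simulated data. Precision is limited by the number of arrays, which have no sequencing depth.

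For each tested member the 3 genes with the highest Pearson r over group means were named, and from the lists the 20 largest calls between genotypes under vehicle, with up to 4 per list elsewhere. The members and lists were chosen with earlier results of these data known. Same-numbered samples were not treated as pairs in the main fit. Over 28 pairs of groups their deviations correlated between -0.12 and 0.31, and 6 exceeded 0.1. This check pools all groups and cannot exclude pairing between some of them. Alternatives were median scaling, quantile normalization, pseudocounts of 1 and 64, no filter or the 60th percentile, no variance trend, the mean of all probe sets, only the groups compared, the actin ratio as a covariate, a replicate block, and leaving out each array.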

Additional observations from a re-analysis of the deposited data

Results flagged for a closer look

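Msx1 was the member whose 4OHT responses differed between the genotypes by a test of that difference itself: 0.69 on the log2 scale (0.685 before rounding; SE 0.20, limma adjusted p = 0.0331), from 0.08 in CreER and -0.60 in no Cre cells. By time, the CreER response was 0.59 at 36 h and -0.43 at 60 h and the no Cre response -0.76 and -0.44, so the difference was 1.35 at 36 h and 0.02 at 60 h, which was not tested by time. The call was lost under 6 of the processing alternatives and also without any 1 of 9 single arrays. The dimmer Msx1 probe set, close to background and not tested, differed by 0.13 for 4OHT in CreER and 0.02 in no Cre cells. The SE and adjusted p use the variance trend over all genes, not the spread of Msx1 itself, whose SD within groups was 0.08 to 0.64. No group was large enough for a check of single outlying arrays.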

How the results depend on the processing

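Zic1 and Ebf1 were called lower in CreER under both treatments with every alternative and with any array left out. Zic1 under vehicle lay between -4.02 (pseudocount 1) and -3.01 (pseudocount 64), and Ebf1 between -3.17 and -2.51. The counts of members called moved where single calls were near the threshold. For 4OHT in CreER cells the 0 calls became 1 with median scaling (Ebf1) and 1 with a pseudocount of 1 (Zic1). For 4OHT in no Cre cells, and for the difference of the responses, the 1 call became 0 with median scaling, quantile normalization, no filter, the 60th percentile filter, the mean of all probe sets and the replicate block. For 60 h against 36 h in CreER cells the 1 call became 2 with median scaling and quantile normalization, and 0 with a pseudocount of 64, no filter, the mean of all probe sets, only the groups compared and the actin covariate. In no Cre cells the 0 calls became 2, and for the difference of the time changes 1, with median scaling and quantile normalization. Leaving out 1 array gave 2 to 3 members between genotypes under vehicle and under 4OHT, 2 to 4 over all conditions (4 without the first no Cre vehicle array at 60 h), and 0 to 1 in each other comparison. The cause was not tested in these cases, apart from filters and probe set means, which change what is tested.

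The replicate block, with samples sharing only a number, left the counts of members called between genotypes at 2 under vehicle and 3 under 4OHT.

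Signs turned only in differences that limma had not called. With the actin covariate the median of all tested genes at 60 h in no Cre cells turned as well, from -0.11 to 0.30. With the actin covariate Msx1 over all conditions became -0.12 and at 60 h in no Cre cells -0.40, Lhx2 under vehicle 0.029, in the difference of 4OHT responses -0.077, at 60 h in no Cre cells 0.20 and in the difference of time changes -0.32, and Meis1 over all conditions 0.045 and at 60 h in CreER cells 0.025. With median scaling Lhx2 in the difference of 4OHT responses became -0.00264, Ebf1 at 60 h in no Cre cells -0.00410, and Meis1 0.00316 under vehicle and 0.099 over all conditions. With quantile normalization Meis1 over all conditions became 0.098 and Zic1 in the difference of time changes -0.033. With the mean of all probe sets Ebf1 in no Cre cells became -0.10 for 4OHT and -0.17 at 60 h. The single-gene test of Lhx2 lost its call with median scaling (-0.060) and quantile normalization (-0.020), and that of Otx2 with median scaling (-0.073). With 1 array left out these ranged from -0.27 to -0.15 for Lhx2 (exact permutation p 0.00617 to 0.0802), from -0.12 to -0.045 for Otx2 (0.00926 to 0.157) and from -0.090 to 0.015 for Meis1. Signs also turned with 1 array left out for Ebf1 in no Cre cells (4OHT -0.046 to 0.069; 60 h -0.032 to 0.083), Lhx2 (4OHT in CreER -0.23 to 0.027; difference of 4OHT responses -0.097 to 0.16; of time changes -0.053 to 0.20), Meis1 in CreER (4OHT -0.00293 to 0.21; 60 h -0.13 to 0.079), Msx1 (4OHT in CreER -0.013 to 0.18; genotype under vehicle -0.42 to 0.034) and Zic1 at 60 h in CreER (-0.24 to 0.010).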
